A study of Mus musculus with 24 samples.

Results

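The oxidative phosphorylation genes were taken as every gene with a symbol on the array that starts with Ndufb, Ndufs, Ndufv, Ndufc, Sdh, Uqcr, Cox4, Cox5, Cox6, Cox7, Cox8 or Atp5. That rule gave 74 of the 32451 genes or transcripts on the array. It named 23 genes of complex I, 4 subunits and 4 assembly factors of complex II, 8 genes of complex III, 18 of complex IV and 17 of complex V. The Ndufa subunits of complex I fell outside the rule and were counted as a separate list. Probes were named through RefSeq accessions, and 12195 of the 39429 probes had no symbol, so members among these would be missed. No symbol was that of a subunit encoded by mitochondrial DNA.

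The respiratory chain sits in the inner mitochondrial membrane. Complex I takes electrons from NADH, complex II takes them from succinate, complex III passes them from ubiquinol to cytochrome c, and complex IV passes them to oxygen. The proton gradient built on the way drives ATP synthesis in complex V. Several complex IV subunits exist as isoforms from separate genes, some of them typical of heart and skeletal muscle or of testis. Neutrophils are known for a low mitochondrial content and a reliance on glycolysis, whereas macrophages and dividing progenitors hold more mitochondria.

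RNA was measured in CD11b+ cells, which are mostly granulocytes, monocytes and macrophages, from the spleen and the bone marrow of mice. The genotypes were WT, HDC-KO (without histidine decarboxylase, the enzyme that makes histamine) and STAT6-KO (without a transcription factor downstream of interleukin receptors), which the study's methods describe as males on a Balb/C background, 10 weeks old. Each genotype was sampled as control and at 1, 2 and 4 weeks after MI (myocardial infarction). Cells of 5 mice were pooled for each sample and each condition had 1 array, so no condition had a replicate and the spread between mice was not measured.

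Of the 24 arrays, 22 were complete, 11 from spleen and 11 from bone marrow, and these formed 10 pairs of the same genotype and time point. For 2 conditions, MI 1 week in STAT6-KO bone marrow and the control of HDC-KO spleen, the file held only a small part of the spots and was set aside. Arrays with the same scan date in their file headers were taken as 1 slide, which is inferred and not given by the labels. Each slide so defined carried the 4 time points of 1 genotype in 1 tissue, always at the same positions. Genotype and slide, and time point and position on the slide, therefore cannot be told apart within a tissue. No slide held both tissues, so tissue and slide cannot be told apart either. The pairs of 1 genotype share their slides, while the fit treats all 10 pairs as independent. A level below is the log2 signal of a spot minus the 75th percentile of its array, so 0 marks that percentile. A gene counted as changed when limma gave it an adjusted p under 0.05 over all genes tested.

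The sorted population was checked through Itgam, which encodes CD11b, and its partner Itgb2. Both were well above background on all 22 arrays. The median level of these 2 genes ran from 3.06 to 4.33 over the spleen arrays and from 4.56 to 5.30 over the bone marrow arrays, with no overlap. The spleen minus bone marrow difference of Itgam was -1.47 (adjusted p 5.51e-06). Itgb2 differed by -1.31 (adjusted p 1.27e-05). The level of Hdc was 1.67 to 2.78 on the 7 HDC-KO arrays and 4.31 to 5.51 on the 8 WT arrays, so transcript was still detected in the knockout but lower on every array. Each of the 3 probes for Stat6 was lower on the STAT6-KO array than on the WT array of the same tissue and time in 7 of 7 pairs. Their medians were 2.32, -0.97 and -0.68 in STAT6-KO and 2.84, 0.91 and 1.04 in WT, and the ranges of the genotypes overlapped for each probe. For Xist, which is transcribed from an inactive X chromosome, 1 of 2 probes was well above background on 7 of 7 HDC-KO arrays, 2 of 7 STAT6-KO arrays and 0 of 8 WT arrays, although the methods give male mice. The other probe was well above background on 7 of 7 HDC-KO, 6 of 7 STAT6-KO and 5 of 8 WT arrays. By the former probe the STAT6-KO controls stood at -2.06 in the spleen and -3.18 in bone marrow, and the STAT6-KO arrays after MI at -9.36 to -8.43. Every comparison of STAT6-KO after MI with its control therefore sets arrays low in Xist against a control higher in it, and the part of this in the members' values was not tested. Ndufb11 and Cox7b are the members on chromosome X.

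One array stood apart in the members themselves. STAT6-KO bone marrow at MI 2 weeks held the highest levels of the muscle isoforms of complex IV, with Cox8b at 0.02 against -7.16 to -2.49 on the other 21 arrays. On the same array Cox7a1 stood at -0.12 against -2.94 to -2.23 and Cox6a2 at 0.57 against -3.14 to -0.97. Of the 25409 genes well above background there, 83 were more than 2 log2 units above the highest other array.

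Of the 74 members, 72 could be tested. Cox7b2 and Cox8c, isoforms typical of testis, were well above background on 0 of 22 arrays. Cox8b missed the background limit on 1 array, HDC-KO bone marrow at MI 4 weeks, where it stood at -7.16. Among the 69 members well above background on every array, the SD of the level over the 22 arrays ran from 0.128 to 0.882 with a median of 0.223. The median SD over the 20510 genes well above background on every array was 0.487, and 61 of the 69 members lay under it. The members were not matched with those genes for level, and the part of level in their SDs was not tested. The smallest SDs were those of Uqcrc2, a core protein of complex III, at 0.128, of Ndufb4, in the membrane arm of complex I, at 0.138, and of Sdhb, the iron-sulfur subunit of complex II, at 0.149. The largest were 0.882 for Cox4i2, 0.797 for Cox6a2 and 0.616 for Sdhaf4, while Cox8b reached 1.44 with its dim array included.

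Spleen was compared with bone marrow over the 10 pairs to see how the tissue of origin bears on the genes. In the spleen 14 members were higher, 19.4% of the 72, where 22.4% of all 27659 genes tested were higher. In the spleen 17 members were lower, 23.6%, where 32% of all genes tested were lower. Both shares lay under the share over all genes. The median difference was -0.03 over the members and -0.16 over all genes tested, and limma gave an unadjusted p under 0.05 for 33 members (45.8%) and for 59.4% of all genes. The split into higher and lower depended on the scaling. It was 20 and 13 with quantile normalization, which moved the median of all genes to -0.05. It was 13 and 8 with scaling to the median, and 17 and 13 with the 75th percentile of probes well above background on all arrays. The median of the members turned positive under these 3 scalings, at 0.06, 0.05 and 0.06. Bulk samples cannot tell fewer cells of a type from less RNA per cell, and the cell type lists given further on differed between the tissues too.

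Complexes I, IV and V held calls in both directions, as did all genes tested, with 22.4% higher in the spleen and 32% lower. Of the 23 complex I genes 4 were higher (17.4%) and 7 lower (30.4%), shares near those over all genes. Of the 16 tested complex IV genes 1 was higher (6.25%) and 7 lower (43.8%), and of the 17 complex V genes 4 were higher (23.5%) and 2 lower (11.8%). Complex II had 2 of 4 subunits higher (50%) and 0 lower, and its assembly factors 3 of 4 higher (75%) and 0 lower. Complex III had 0 of 8 higher and 1 lower (12.5%). These groups are small, and their shares were not tested against those over all genes.

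Complex II showed its largest differences in assembly factors. Sdhaf4, which binds the flavin-carrying Sdha before it joins Sdhb, stood at 1.05, 1.26 and 1.42 (lowest, median and highest level) in the spleen and at -0.25, 0.08 and 0.44 in bone marrow. All 11 spleen arrays lay above all 11 bone marrow arrays. The difference was 1.22 with a standard error of 0.08 (adjusted p 3.28e-07), higher in 10 of 10 pairs.

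Sdhaf1 helps to place iron-sulfur clusters in Sdhb. Its levels were 0.74, 1.25 and 1.66 in the spleen and -0.17, 0.28 and 0.85 in bone marrow. The groups overlapped through 1 bone marrow array, the HDC-KO control, which lay above 3 spleen arrays. The difference was 0.90 with a standard error of 0.11 (adjusted p 3.21e-05), higher in 10 of 10 pairs.

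Sdhaf3 acts at the same step and was a dim gene. Its levels were -2.72, -2.19 and -1.86 in the spleen and -3.88, -3.11 and -2.57 in bone marrow. The bone marrow array at the top was again the HDC-KO control, and it passed only the WT spleen array of MI 1 week. The difference was 0.88 with a standard error of 0.10 (adjusted p 2.38e-05), higher in 10 of 10 pairs. Sdhaf2, needed for attaching flavin to Sdha, went the other way, at -0.24 (adjusted p 0.076).

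Of the subunits, the catalytic flavoprotein Sdha differed by 0.42 (adjusted p 0.00458, 10 of 10 pairs). Its levels ran from 2.90 to 3.26 in the spleen and from 2.19 to 2.95 in bone marrow. The membrane anchor Sdhc differed by 0.24 (adjusted p 0.0306), higher in 10 of 10 pairs, but its other probe gave -0.27 (adjusted p 0.0813), and the mean of both probes gave -0.01. Leaving out the pair of WT control, WT MI 1 week, WT MI 2 weeks, WT MI 4 weeks or HDC-KO MI 4 weeks took Sdhc to between 0.22 and 0.24 and past the threshold no longer, with adjusted p from 0.0563 to 0.0629. Sdhb differed by -0.03 (adjusted p 0.831) and the other anchor, Sdhd, by -0.12 (adjusted p 0.28).

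**Figure D1:**
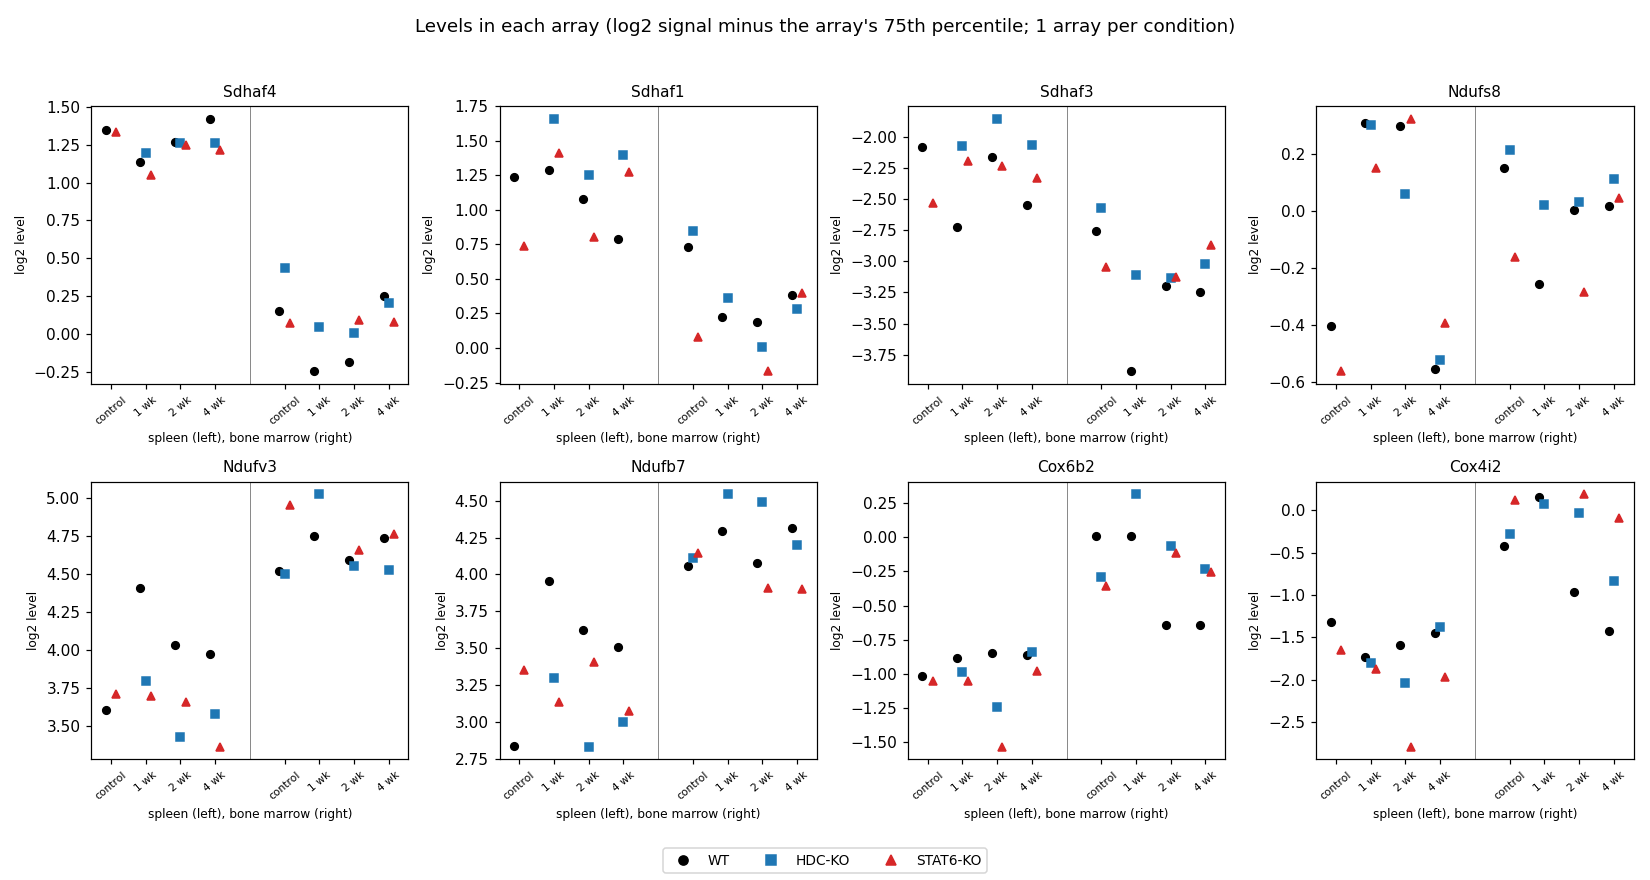
Level (log2 signal minus the 75th percentile of the array, vertical axis) of 8 members on each of the 22 arrays, with spleen on the left and bone marrow on the right of each panel, control and weeks after MI along the horizontal axis, and symbols for genotype. Sdhaf4, Ndufv3 and Cox6b2 separate the tissues on every array, and Ndufs8 in the spleen is higher at 1 and 2 weeks than in controls or at 4 weeks.

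In complex I the largest fall was that of Ndufv3, an accessory subunit of the module that oxidises NADH. Its levels were 3.37, 3.70 and 4.41 in the spleen and 4.50, 4.66 and 5.03 in bone marrow. The groups did not overlap, and WT spleen at MI 1 week came closest. The difference was -0.95 with a standard error of 0.12 (adjusted p 3.01e-05), lower in 10 of 10 pairs, and the other probe of the gene gave -1.79 (adjusted p 4.17e-07).

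Ndufb7 lies on the membrane arm. Its levels were 2.83, 3.30 and 3.96 in the spleen and 3.90, 4.15 and 4.54 in bone marrow. WT spleen at MI 1 week was the only spleen array to reach bone marrow levels. The difference was -0.91 with a standard error of 0.14 (adjusted p 0.000159), lower in 10 of 10 pairs.

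Ndufs3, a core subunit of the arm that reaches into the matrix, went the other way. Its levels were 3.38, 3.68 and 3.94 in the spleen and 2.91, 3.08 and 3.44 in bone marrow. The HDC-KO bone marrow arrays of MI 1 week and MI 4 weeks passed the lowest spleen array, WT control. The difference was 0.58 with a standard error of 0.11 (adjusted p 0.000751), higher in 10 of 10 pairs.

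Lower in all 10 pairs were also Ndufs4, which steadies the NADH-oxidising module, at -0.49 (adjusted p 0.00314), and the membrane arm subunits Ndufb11 at -0.38 (adjusted p 0.00452) and Ndufb9 at -0.35 (adjusted p 0.0165). Past the threshold without the same sign in every pair were Ndufb8 at -0.42 and Ndufs5 at -0.34, both lower in 9 of 10 pairs, and Ndufb10 at 0.37, Ndufc2 at 0.33 and Ndufb5 at 0.24, each higher in 9 of 10. The other probe of Ndufb5 gave 0.88 (adjusted p 1.47e-05). These 5 were named after their values were seen, as were the other members given below with fewer than 10 pairs.

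In complex III the core protein Uqcrc1 was lower, at -0.41 (adjusted p 0.0289, 8 of 10 pairs). The other 7 genes missed the threshold, among them Uqcrfs1, the Rieske iron-sulfur protein, at 0.12 (adjusted p 0.363). For Uqcrb, a subunit near the ubiquinone site, the probe used gave 0.21 (adjusted p 0.121) and another of its 3 probes gave 0.96 (adjusted p 0.00196).

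In complex IV the isoforms of a subunit were taken gene by gene. Cox4i2, the isoform of subunit 4 that is known from lung and low oxygen, stood at -2.79, -1.74 and -1.32 in the spleen and at -1.43, -0.09 and 0.19 in bone marrow. WT bone marrow at MI 4 weeks was the only bone marrow array within the spleen range. The difference was -1.45 with a standard error of 0.26 (adjusted p 0.000532), lower in 10 of 10 pairs, and the pairs ran from -2.98 to -0.02. The widespread isoform Cox4i1 differed by -0.12 (adjusted p 0.386).

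Cox6b2, the testis isoform of subunit 6b, stood at -1.53, -0.99 and -0.84 in the spleen and at -0.64, -0.24 and 0.31 in bone marrow. The groups did not overlap, and the WT bone marrow arrays of MI 2 weeks and MI 4 weeks came closest to the spleen. The difference was -0.83 with a standard error of 0.14 (adjusted p 0.00032), lower in 10 of 10 pairs. The widespread Cox6b1 was lower too, by -0.47 (adjusted p 0.00136, 10 of 10 pairs).

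Cox6a2, the heart and muscle isoform of subunit 6a, stood at -3.14, -2.18 and -1.31 in the spleen and at -2.25, -1.59 and 0.57 in bone marrow, with wide overlap. The difference was -0.75 (adjusted p 0.0284, 10 of 10 pairs). It was -0.47 (adjusted p 0.00287) without the pair of STAT6-KO MI 2 weeks, the array that stood apart, and -0.74 (adjusted p 0.0515) without the pair of WT MI 1 week. Cox6a1, the isoform of most tissues, differed by -0.36 (adjusted p 0.00828, 10 of 10 pairs).

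For the muscle isoform Cox7a1 the difference was -0.29 (adjusted p 0.292), and -0.07 (adjusted p 0.654) without the pair of STAT6-KO MI 2 weeks. Cox7a2 differed by -0.21 (adjusted p 0.0991). Cox7a2l, a related protein that joins complexes III and IV into supercomplexes, was higher at 0.43 (adjusted p 0.00528, 9 of 10 pairs), and its other 2 probes gave 0.50 and 0.51. Cox7b differed by 0.05 (adjusted p 0.74).

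The muscle isoform Cox8b differed by 0.11 (adjusted p 0.911), and by 0.77 (adjusted p 0.235) without the pair of STAT6-KO MI 2 weeks. Its levels ran from -5.79 to -2.80 in the spleen and from -7.16 to 0.02 in bone marrow. The widespread Cox8a was lower at -0.35 (adjusted p 0.00627, 9 of 10 pairs), as was Cox5b at -0.32 (adjusted p 0.0176, 8 of 10 pairs).

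On the STAT6-KO bone marrow array of MI 2 weeks the partner isoforms lay within the range of the other 21 arrays, with Cox4i1 at 3.67, Cox6a1 at 5.54, Cox7a2 at 3.38 and Cox8a at 5.13. Genes typical of heart muscle, listed after the isoform values were seen, were high on the same array. Myh6, a heart myosin, stood at 4.03 with 0.02 on the next array, Actc1 at 2.02 with -2.31 on the next, Tnnt2 at 1.57 with -2.82 on the next, Nppa at 0.87 with -1.73 on the next and Tnni3 at 0.48 with -2.91 on the next. The log2 of the summed signal of these 5 genes was 4.73 there, 0.79 on the STAT6-KO bone marrow control array and between -2.68 and -0.84 on the other 20. Genes of the skeletal muscle list went both ways on that array. Mb stood at 2.82 with -1.48 on the next array, Acta1 at 0.87 with -0.80 on the next and Ckm at -2.94 with -5.19 on the next, while Myh4 at -8.50 and Myh1 at -6.73 were inside their range elsewhere. Of the brown fat list, Cidea stood at -3.99 with -6.09 on the next array, and Ucp1 at -8.45 was inside its range. The part of these transcripts in the result was not tested.

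**Figure D2:**
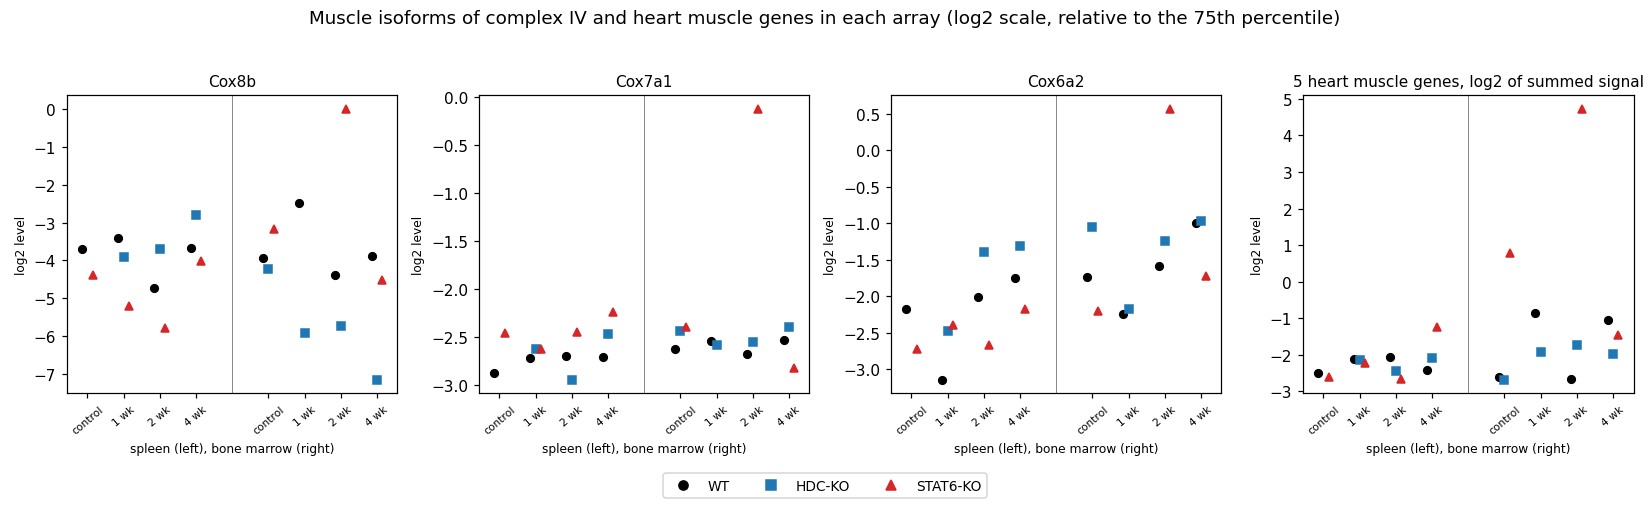
Level (log2, vertical axis) of Cox8b, Cox7a1 and Cox6a2 and the log2 of the summed signal of 5 heart muscle genes on each of the 22 arrays, with spleen on the left and bone marrow on the right of each panel and symbols for genotype. STAT6-KO bone marrow at MI 2 weeks is the highest array in all 4 panels, at 0.02, -0.12, 0.57 and 4.73.

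In complex V the c subunit of the rotor ring is encoded by 3 genes whose mature proteins are the same. Atp5g2 differed by 0.47 (adjusted p 0.00219, 10 of 10 pairs), with levels from 4.34 to 5.04 in the spleen and from 3.97 to 4.57 in bone marrow. Atp5g1 differed by 0.44 (adjusted p 0.0094, 9 of 10 pairs). Atp5g3 differed by less than 0.01 in size (adjusted p 0.998), with 4.17 to 4.89 in the spleen and 4.25 to 4.69 in bone marrow.

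Atp5mpl, a small proteolipid of the membrane sector, was higher at 0.51 (adjusted p 0.000636, 10 of 10 pairs), and Atp5a1, the alpha subunit of the catalytic head, at 0.33 (adjusted p 0.0199, 9 of 10 pairs). Lower were Atp5j, the coupling factor of the stator, at -0.46 (adjusted p 0.00443, 9 of 10 pairs), and Atp5pb, the stator's b subunit, at -0.29 (adjusted p 0.037, 8 of 10 pairs). The catalytic Atp5b differed by -0.02 (adjusted p 0.88).

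Each genotype's own pairs gave fewer calls than all pairs together, in fits that rested on fewer pairs. WT had the most pairs of the genotypes and gave the fewest members. The part of the number of pairs in these counts was not tested. The WT pairs alone gave 5 members, Sdhaf1, Sdhaf3, Sdhaf4, Ndufv3 and Cox6a2. The HDC-KO pairs alone gave 8, which were Sdhaf1, Sdhaf3, Sdhaf4, Ndufv3, Ndufb7, Cox4i2, Cox6b2 and Cox8b, the last with 1 bone marrow array not above background. The STAT6-KO pairs alone gave 7, which were Sdhaf1, Sdhaf4, Ndufv3, Ndufs3, Ndufs4, Cox4i2 and Cox6b2. Sdhaf1, Sdhaf4 and Ndufv3 were in all 3 sets. With slide as a random block in place of the pair, 28 members passed. A fold over 2 with an unadjusted p under 0.05, the rule of the study's methods, left Cox4i2 and Sdhaf4. The share of all genes passing in these fits is not given, so these counts cannot be set against it.

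The genes around the chain were counted in the same comparison, spleen against bone marrow. Of the 13 Ndufa subunits of complex I, 3 were higher and 6 lower, led by Ndufa5 at 0.95 and Ndufa3 at -0.72. Of 14 complex I assembly factors, 7 were higher and 3 lower, led by Ecsit at 1.27 and Ndufaf4 at 1.19. Of 22 assembly factors of complexes III and IV, 8 were higher and 2 lower, led by Ttc19 at 1.33 and Bcs1l at -1.07. Of 4 assembly factors and inhibitors of complex V, 2 were higher and 0 lower, Tmem70 at 0.82 and Atpaf2 at 0.64. The median difference was -0.29, 0.30, 0.19 and 0.46 in these 4 lists, where all genes tested had -0.16. Cyc1, the cytochrome c1 subunit of complex III whose symbol the rule does not take in, was lower at -0.53. Cycs, which encodes cytochrome c, missed the threshold at 0.10.

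Fuel pathways differed in size. Of 19 glycolysis genes 2 were higher and 15 lower, with a median of -0.84, led by Slc2a3 at -2.34 and Hk3 at -2.11. Of 13 genes of the tricarboxylic acid cycle 2 were higher and 4 lower, with a median of -0.01, and Fh1 at 0.92 and Suclg2 at 0.84 were the 2 largest. Of 11 hypoxia-inducible genes 4 were higher and 4 lower, led by P4ha1 at 1.70 and Egln3 at -1.52. Of 12 genes for uncoupling, carriers and antioxidants of mitochondria 5 were higher and 4 lower, led by Prdx5 at -1.67, with Gpx4 next.

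Of 15 regulators of mitochondrial genes 7 were higher and 5 lower, led by the coactivators Ppargc1a at 1.67 and Ppargc1b at 1.44. Of 18 mitochondrial import genes 8 were higher and 4 lower, led by Timm10 at 1.28 and Timm9 at 0.71. Of 78 genes of the mitochondrial ribosome 31 were higher and 12 lower, with a median of 0.14, led by Mrps6 at 1.40 and Mrpl52 at 1.00. Of 88 genes of the cytosolic ribosome 37 were higher and 3 lower, with a median of 0.24, led by Rpl3 at 0.98 and Rpl22l1 at 0.85.

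Cell type lists were counted in the same comparison. All 10 genes of neutrophil granules made by immature cells were lower in the spleen, with a median of -2.28, led by Elane at -3.62 and Ctsg at -3.20. Of 9 mature neutrophil genes 0 were higher and 6 lower, led by Mmp9 at -2.56 and Mmp8 at -1.95. Of 13 cell cycle genes 0 were higher and 12 lower, with a median of -1.45, led by Top2a at -1.93 and Mki67 at -1.90. All 5 megakaryocyte and platelet genes were lower, led by Ppbp at -2.69 and Pf4 at -1.98.

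All 10 tested monocyte and macrophage genes were higher in the spleen, with a median of 1.69, led by Spic at 3.72. Of 5 dendritic cell genes 3 were higher and 0 lower, among them Itgax at 2.25 and Xcr1, which was not above background on any of the 11 bone marrow arrays. Of 6 B cell genes 5 were higher and 1 lower, led by Ms4a1 at 3.40. Of 6 T cell genes 4 were higher and 1 lower, led by Cd3g at 4.29 and Cd8a at 3.08. Of 5 NK cell genes 3 were higher and 0 lower, led by Gzma at 3.45 and Ncr1 at 2.99.

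Of 5 plasma cell genes 3 were higher and 0 lower, led by Jchain at 2.50 and Tnfrsf17 at 2.40. Of 9 erythroid genes 3 were higher and 1 lower, led by Alas2 at 1.17 and Hba-a1 at 1.03. Of 10 tested skeletal muscle genes 1 was higher and 4 lower, among them Acta1 at -1.99 and Mb, which was not above background on 6 of 11 spleen arrays. Of 5 heart muscle genes 0 were higher and 3 lower. These were Nppa at -1.51 and, not above background on 10 and 9 of 11 spleen arrays, Tnnt2 and Actc1. Of 6 brown fat genes 1 was higher and 2 lower. The lower genes were Adipoq and Elovl3, not above background on 7 and 2 of 11 spleen arrays. These lists moved with the tissue in the same arrays as the members, and their part in the result was not tested.

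Genotypes were compared within each tissue to see how the members stood without Hdc or Stat6. As 1 Xist probe was well above background on every HDC-KO array and no WT array, each HDC-KO comparison also sets arrays high in Xist against arrays without it, and the part of this was not tested. In the spleen 0 members passed for HDC-KO against WT, where 2.83% of all 26472 genes tested passed, and limma gave 1 member (1.39%) and 22.6% of all genes an unadjusted p under 0.05. The methods' rule of a fold over 2 gave 0. The lowest p belonged to Ndufv3, whose difference was -0.45 (adjusted p 0.191), lower in 3 of 3 time points. The median was -0.11 over the members and 0.06 over all genes. With quantile normalization the members' median was under 0.01 in size where all genes had 0.01, and with scaling to the median it was -0.28 where all genes had -0.11.

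For STAT6-KO against WT in the spleen 0 members passed, where 1.93% of all genes tested passed, and limma gave 12 members (16.7%) and 22.9% of all genes an unadjusted p under 0.05. The 12 members were lower in STAT6-KO. The methods' rule of a fold over 2 gave 0. The lowest p belonged to Ndufc1, a small accessory subunit of complex I. Its levels were 2.50, 2.41, 2.45 and 2.48 on the WT arrays from control to MI 4 weeks and 2.16, 1.88, 1.92 and 1.99 on the STAT6-KO arrays. All 4 STAT6-KO arrays lay under all 4 WT arrays, and the difference was -0.47 (adjusted p 0.0841). The median was -0.13 over the members and -0.05 over all genes. In controls the members' median was 0.06 where all genes had 0.002, and 44 of 72 members were higher in STAT6-KO. The members' median was -0.30, -0.23 and -0.13 at MI 1, 2 and 4 weeks, where all genes had -0.07, -0.15 and -0.03. Atp5j and Ndufb11 lacked the STAT6-KO array of MI 1 week in the spleen fits, where their spots were marked as outliers.

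In bone marrow 0 members passed for HDC-KO against WT, where 0.447% of all 27090 genes tested passed, and limma gave 2 members (2.78%) and 21.2% of all genes an unadjusted p under 0.05. The methods' rule of a fold over 2 gave 1, Cox8b, at -2.08 (limma adjusted p 0.232). That size is not exact, as it takes in the HDC-KO array of MI 4 weeks on which Cox8b was not above background. The median was 0.10 over the members, 52 of 72 of them positive, and -0.01 over all genes. The members' median was 0.07 in controls, 0.24 at MI 1 week, 0.07 at MI 2 weeks and -0.06 at MI 4 weeks. All genes had 0.04, -0.09, 0.05 and -0.05 at these times. At MI 1 week 61 of 72 members were higher, and at MI 4 weeks 27 were. The lowest p belonged to Sdhaf2, at 0.33 (adjusted p 0.187), higher in 4 of 4 time points. For STAT6-KO against WT 0 members passed, where 4.65% of all genes tested passed, and limma gave 4 members (5.56%) and 22.5% of all genes an unadjusted p under 0.05. The methods' rule of a fold over 2 gave 0. The median was 0.07 over the members, 51 of 72 of them positive, and 0.08 over all genes, and with scaling to the median both turned negative, to -0.04 and -0.03. By time point the members' median was 0.12 in controls, 0.08 at MI 2 weeks and -0.14 at MI 4 weeks, where 24 of 72 were higher. All genes had 0.16, 0.14 and -0.03 at these times, so the members lay under all genes at each.

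Cox4i2 had the lowest p of STAT6-KO against WT in bone marrow. Its levels were -0.43, 0.15, -0.97 and -1.43 on the WT arrays from control to MI 4 weeks, and 0.12, 0.19 and -0.09 on the STAT6-KO arrays of control, MI 2 weeks and MI 4 weeks. The STAT6-KO array was higher in 3 of 3 time points, but the WT array of MI 1 week lay within the STAT6-KO range. The level of 0.19 belongs to the MI 2 weeks array that stood apart with heart muscle genes. The STAT6-KO control array was next in the summed signal of those genes. The difference was 0.94 (adjusted p 0.0617), and 0.0392 when genes had to be well above background on every array. The complex III gene Uqcr10 showed a disagreement between probes here, as the probe used gave -0.25 (adjusted p 0.377) and another gave 0.83 (adjusted p 0.0347).

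Whether a genotype acted differently in the tissues was tested on the pair differences. For HDC-KO 0 members passed, where 1.79% of all genes tested passed, and limma gave 5 members (6.94%) and 21.2% of all genes an unadjusted p under 0.05. The lowest p was that of Cox8b, at 3.29 (adjusted p 0.117), a size that again takes in its array not above background. The median was -0.21 over the members and 0.08 over all genes. The members' median was -0.09 with quantile normalization and -0.48 with scaling to the median. For STAT6-KO 0 members passed, where 1.23% of all genes tested passed, and limma gave 4 members (5.56%) and 19.0% of all genes an unadjusted p under 0.05. The lowest p was that of Cox4i2, at -1.61 (adjusted p 0.076). A fit over all arrays without the pair gave it an adjusted p of 0.0256. The median was -0.17 over the members and -0.12 over all genes, and with scaling to the median both turned positive, to 0.03 and 0.08. The methods' rule was not applied to these differences.

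Time points after MI were compared with the control in each tissue, with the genotypes standing in for replicates. All comparisons of a tissue shared its control arrays, and HDC-KO lacked its spleen control. In the spleen at MI 1 week 1 member was higher, where 1.65% of all genes tested were higher, and 0 were lower, where 6.11% were lower. limma gave 4 members (5.56%) and 27.2% of all genes an unadjusted p under 0.05, and the methods' rule of a fold over 2 gave 0.

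That member was Ndufs8, a core subunit that carries iron-sulfur clusters on the electron path to ubiquinone. In the spleen it stood at -0.40 (WT) and -0.56 (STAT6-KO) in controls. At MI 1 week it stood at 0.31 (WT), 0.30 (HDC-KO) and 0.15 (STAT6-KO), and at MI 2 weeks at 0.30, 0.06 and 0.32. At MI 4 weeks it stood at -0.55, -0.52 and -0.39. All 6 arrays of MI 1 week and MI 2 weeks lay above all 5 arrays of control and MI 4 weeks.

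The difference at MI 1 week was 0.76 with a standard error of 0.17 (adjusted p 0.0374), higher in 2 of 2 pairs. Without any 1 genotype the call was lost, at 0.83 (adjusted p 0.346) without WT, 0.71 (adjusted p 0.148) without HDC-KO and 0.74 (adjusted p 0.0916) without STAT6-KO. Without STAT6-KO the only member that passed was Ndufb7. With normexp background correction the difference was 0.67 (adjusted p 0.459). At MI 2 weeks it was 0.74 (adjusted p 0.0631) and at MI 4 weeks 0.02 (adjusted p 0.979). In bone marrow the levels of Ndufs8 ran from -0.28 to 0.22, and the differences were -0.26, -0.15 and -0.01 at 1, 2 and 4 weeks. A difference between the tissues in the effect of MI was not tested.

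At MI 2 weeks in the spleen 0 members passed, where 2.24% of all genes tested passed, and limma gave 4 (5.56%) and 23.7% of all genes an unadjusted p under 0.05. At MI 4 weeks 0 passed, where 0% of all genes tested passed, and limma gave 0 members and 8.72% of all genes an unadjusted p under 0.05. The methods' rule of a fold over 2 gave 0 at both times.

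Each genotype's own arrays were also set against its control in the spleen. At MI 1 week 56 of 72 members were higher in WT, with a median of 0.19 where all genes had -0.12. In STAT6-KO 18 of the 70 members with a value were higher, with a median of -0.17 where all genes had -0.18. At MI 2 weeks 51 were higher in WT (median 0.16, all genes -0.05) and 29 in STAT6-KO (median -0.06, all genes -0.17). At MI 4 weeks 57 were higher in WT (median 0.14, all genes 0.11) and 33 in STAT6-KO (median -0.01, all genes 0.05). A difference between the genotypes was not tested here. These are single arrays against single arrays, and the WT and STAT6-KO times each share 1 control array.

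In bone marrow 0 members passed at MI 1 week, where 0.148% of all genes tested passed, 0 at MI 2 weeks, where 0% passed, and 0 at MI 4 weeks, where 0% passed. limma gave 1, 2 and 6 members an unadjusted p under 0.05 (1.39%, 2.78% and 8.33%), where all genes had 19.7%, 7.48% and 19.1%. The methods' rule of a fold over 2 gave 0 each time. The lowest p belonged to Sdhaf3 at MI 1 week, at -0.71 (adjusted p 0.176), and to Sdhaf1 at MI 2 weeks, at -0.54 (adjusted p 0.64).

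At MI 2 weeks in bone marrow the members lay slightly under the controls in every genotype. Of 72 members, 14 were higher than in the control in WT, 16 in HDC-KO and 15 in STAT6-KO, with medians of -0.13, -0.15 and -0.16. The medians over all genes were 0.02, 0.01 and 0.01. In the fit the median of the members was -0.14, and it ran from -0.22 to -0.08 over the scalings and background corrections tried. No member passed the threshold, and MI 2 weeks always lay at the same position on a slide.

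Few listed genes passed the threshold with genotype or time. At MI 1 week in the spleen 4 of 78 genes of the mitochondrial ribosome were higher and 0 lower, led by Mrps18a at 0.85, and the assembly factor Ndufaf3 was higher at 0.76 while Ndufaf5 was lower at -0.89. The coactivator Ppargc1a was lower at -1.36 (adjusted p 0.0403), and the import gene Timm13 was higher at 0.88, as was the heart muscle gene Tnni3 at 0.86. In the same comparison 3 of 10 immature neutrophil granule genes were higher, led by Fcnb at 2.63 and Elane at 1.88, 3 of 13 cell cycle genes were higher, led by Mcm5 at 1.61 and Mki67 at 1.39, and 4 of 6 T cell genes were lower, led by Cd3g at -2.07 and Cd3e at -1.98. In STAT6-KO bone marrow the copper chaperone Cox17 was higher at 1.08 (adjusted p 0.00863) and the complex III assembly factor Bcs1l at 0.63 (adjusted p 0.037). Lower in the same comparison were the mitochondrial ribosome gene Mrpl37 at -0.70 and the carrier Ucp2 at -0.58. Bnip3 was higher at 1.41, 1 of 11 hypoxia-inducible genes. Of cell type lists, 2 of 5 plasma cell genes were higher, Jchain at 2.93 and Prdm1 at 1.44, 2 of 6 T cell genes, Cd4 at 0.78 and Cd8a at 0.61, 1 of 5 NK cell genes, Prf1 at 0.54, and 1 of 13 cell cycle genes, Tyms at 1.19. Of 6 B cell genes 1 was lower, Pax5 at -1.04. The part of these lists in the members' values was not tested.

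Promoters were read for the members, as nuclear genes of the chain are known for shared motifs. RefSeq promoters (GRCm38.p6, 300 bases around the start of the gene) were matched by symbol for 60 of the 74 members. NRF1 was searched as GCGCATGC, ETS as CCGGAAG, YY1 as AAGATGGC, SP1 as GGGCGG and CRE as TGACGTCA, on both strands. ETS was found in 19 of the 60 member promoters (31.7%) and in 9.12% of all 27025 promoters. NRF1 was found in 7 (11.7%) and in 2.8% of all, YY1 in 7 (11.7%) and in 2.88% of all, SP1 in 24 (40%) and in 35.9% of all, and CRE in 2 (3.33%) and in 1.88% of all. ETS was in 27.3% of the 11 promoters of members higher in the spleen, 28.6% of the 14 of members lower there and 35.3% of the 34 of members not called. In the same order SP1 was in 54.5%, 42.9% and 32.4%, YY1 in 0%, 21.4% and 11.8%, NRF1 in 9.09%, 14.3% and 11.8%, and CRE in 0%, 0% and 5.88%. These shares rest on few promoters and were not tested. A match is a run of letters and was not shown to be a bound site. In Sdhaf3, 2 of the SP1 matches overlap.

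To let motifs be compared, promoters are shown for the members farthest up and farthest down in the spleen, 3 each way among those with an entry, in lower case with the motifs in capitals. Cox4i2 has no entry. Sdhaf4, at chr1:24005591-24005890 on the minus strand, holds SP1 once. Sdhaf1, at chr7:30322326-30322625 on the minus strand, holds SP1 and ETS. Sdhaf3, at chr6:6955768-6956067 on the plus strand, holds SP1 and ETS. Ndufv3, at chr17:31519865-31520164 on the plus strand, holds SP1. Ndufb7, at chr8:83566508-83566807 on the plus strand, holds ETS. Cox6b2, at chr7:4753045-4753344 on the minus strand, holds SP1 once.
Sdhaf4: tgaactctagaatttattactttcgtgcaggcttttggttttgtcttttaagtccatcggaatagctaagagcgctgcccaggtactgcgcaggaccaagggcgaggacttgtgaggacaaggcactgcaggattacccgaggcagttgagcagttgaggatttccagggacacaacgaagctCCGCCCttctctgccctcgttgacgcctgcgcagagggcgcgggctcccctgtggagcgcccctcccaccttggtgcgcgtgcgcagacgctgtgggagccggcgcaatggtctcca
Sdhaf1: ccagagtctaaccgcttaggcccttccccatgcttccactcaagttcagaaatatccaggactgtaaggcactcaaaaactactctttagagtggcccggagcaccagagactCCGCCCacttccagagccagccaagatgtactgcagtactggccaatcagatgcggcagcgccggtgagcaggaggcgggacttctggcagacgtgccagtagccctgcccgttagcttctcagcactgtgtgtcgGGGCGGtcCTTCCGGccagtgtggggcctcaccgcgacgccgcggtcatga
Sdhaf3: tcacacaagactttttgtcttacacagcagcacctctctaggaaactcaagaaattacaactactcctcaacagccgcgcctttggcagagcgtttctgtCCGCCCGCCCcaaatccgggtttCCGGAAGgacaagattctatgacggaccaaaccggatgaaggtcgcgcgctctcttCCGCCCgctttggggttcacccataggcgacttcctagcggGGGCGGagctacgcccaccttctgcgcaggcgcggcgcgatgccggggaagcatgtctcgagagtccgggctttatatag
Ndufv3: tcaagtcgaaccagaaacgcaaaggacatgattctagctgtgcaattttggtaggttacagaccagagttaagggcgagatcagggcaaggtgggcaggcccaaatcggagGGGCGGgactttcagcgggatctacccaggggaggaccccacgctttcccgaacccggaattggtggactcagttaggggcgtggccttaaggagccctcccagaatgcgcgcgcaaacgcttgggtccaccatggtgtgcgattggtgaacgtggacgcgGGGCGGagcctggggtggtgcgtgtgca
Ndufb7: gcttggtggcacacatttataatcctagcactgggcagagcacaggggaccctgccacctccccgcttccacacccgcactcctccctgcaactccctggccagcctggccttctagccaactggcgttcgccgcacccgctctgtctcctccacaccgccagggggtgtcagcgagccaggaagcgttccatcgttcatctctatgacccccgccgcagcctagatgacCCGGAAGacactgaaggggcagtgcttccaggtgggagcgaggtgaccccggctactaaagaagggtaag
Cox6b2: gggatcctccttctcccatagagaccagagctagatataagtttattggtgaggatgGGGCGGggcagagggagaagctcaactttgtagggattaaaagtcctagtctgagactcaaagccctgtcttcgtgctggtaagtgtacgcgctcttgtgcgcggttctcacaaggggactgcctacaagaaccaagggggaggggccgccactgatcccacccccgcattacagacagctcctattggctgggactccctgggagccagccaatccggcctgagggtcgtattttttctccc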

How the data were processed

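The authors hybridised Cy3-labelled RNA to 1-colour Agilent mouse arrays and read them with Feature Extraction 11.0.1.1. Per the file headers, each deposited value used here is a spot intensity with background removed, on the linear scale and not normalised between arrays. The submitters' processing notes name GCRMA and the study's methods name Genespring, and neither output was used. From each log2 intensity the array's 75th percentile of non-control spots was subtracted. Outlier spots were dropped, and the probe with the highest mean stood for a gene. A fit kept genes found well above background on at least 2 of its arrays. limma 3.58.1 in R 4.3.3 fitted tissue with the pair as a block, and genotype plus time point within a tissue, with Benjamini-Hochberg adjustment over all genes. Named members were those changed alike in every pair, those with the lowest p where none passed, and fixed paralogue groups, with exceptions stated. Members and lists were chosen with earlier results of these data known, and the muscle and brown fat lists after isoform values were seen. Other scalings, filters, blocks and omissions of single pairs or genotypes were tried. The number of arrays limits the precision.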

Additional observations from a re-analysis of the deposited data

Results flagged for a closer look

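In 5 members the genotype effect had 1 sign at every time point in the spleen and the opposite sign at every time point in bone marrow. For HDC-KO these were 3 of 72 members (4.17%), where 7.53% of all genes tested had such a pattern, and for STAT6-KO 2 of 70 (2.86%), where 5.22% had it. limma's test of the difference between the tissues left all 5 at an adjusted p over 0.05. For HDC-KO against WT the effect was lower in the spleen (3 time points) and higher in bone marrow (4 time points) for Atp5j, Ndufb9 and Cox5b. The difference between the effects was -0.60 for Atp5j (adjusted p 0.177), -0.53 for Ndufb9 (adjusted p 0.219) and -0.40 for Cox5b (adjusted p 0.311). For STAT6-KO against WT the same held for Cox4i2, at -1.61 (adjusted p 0.076), with effects from -1.20 to -0.13 in the spleen and from 0.55 to 1.34 in bone marrow. It held also for Ndufb5, at -0.27 (adjusted p 0.559), with effects from -0.25 to -0.07 and from 0.07 to 0.20. Genotype and slide cannot be told apart here, and the STAT6-KO effects in bone marrow take in the MI 2 weeks array that stood apart.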

How the results depend on the processing

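Of the counts of members recomputed under another setting, 165 stayed within 1.5 times the reported count and 17 did not. Of the medians of the members, 8 moved by at least the SD between pairs and kept their sign, and 3 moved so far and changed it. The differences between tissues in a genotype's effect had no such SD. Of the values of named members, 478 kept their direction and their side of the threshold, 53 fell short of it, 4 passed it and 1 changed sign. For spleen against bone marrow 31 members passed. The pairs of WT alone gave 5, of HDC-KO alone 8 and of STAT6-KO alone 7, with fewer arrays, and a fold over 2 with an unadjusted p under 0.05 gave 2. Leaving out 1 pair at a time gave 27 to 30. The shares over all genes in these fits are not given.

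For MI 1 week in the spleen 1 member passed. There were 0 with normexp background correction, 0 without the filter on dim probes, 0 with the 2 groups compared alone, 0 by the fold rule and 0 by the same test after Benjamini-Hochberg, and 3 with scaling to the median. Leaving out 1 genotype gave 0 to 1. For MI 2 weeks in the spleen 1 member passed with scaling to the median and 1 with only probes well above background on every array, against 0. For HDC-KO in bone marrow the fold rule gave 1 against 0. For STAT6-KO in bone marrow the stricter filter gave 1 against 0. For the STAT6-KO difference between tissues the fit without the pair gave 1 against 0. The cause was not tested.

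Sdhc turned from 0.24 to -0.0131 with the mean over its probes, which differ in sign. The median of the members turned from -0.02 to 0.28 at MI 1 week and from -0.02 to 0.25 at MI 2 weeks in the spleen with scaling to the median, and from 0.10 to -0.0441 at MI 4 weeks with quantile normalization. The median of all genes moved too. At MI 1 week in the spleen it went from -0.16 to 0.14 with scaling to the median, 0.02 with quantile normalization and 0.30 with normexp. At MI 2 weeks it went from -0.13 to 0.13, 0.02 and 0.05. normexp took it to 0.27 for STAT6-KO and 0.20 for MI 4 weeks in the spleen, to -0.11 for HDC-KO, -0.04 for STAT6-KO and 0.31 for MI 1 week in bone marrow, and to 0.27 and 0.07 for the HDC-KO and STAT6-KO differences between tissues. Scaling to the median took it to -0.11 for HDC-KO in the spleen, -0.03 for STAT6-KO in bone marrow, and -0.19 and 0.08 for the same differences, and quantile normalization took the STAT6-KO difference to 0.03. The omission of the STAT6-KO MI 2 weeks pair for Cox6a2, Cox7a1 and Cox8b was chosen after seeing the data.

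With 1 array per condition, no test separates mice from arrays. Genotype and tissue follow slide, and time follows position. Between 70.4% and 79.8% of spots were well above background per array, so differences of dim members such as Cox8b carry more noise. Levels are relative to the 75th percentile, so a change shared by all transcripts would not show.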

Other observations

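The median level of the members relative to each member's own median over the arrays was highest on HDC-KO bone marrow at MI 1 week, at 0.20, where 53 of 72 members lay above their own median. It was lowest on STAT6-KO spleen at MI 1 week, at -0.18, where 16 of 70 did.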
